A study of Mus musculus with 6 samples.

Results

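TGF-beta and BMP pathway genes were read out in fetal mouse lung. The set was a list of 46 genes (ligands, receptors, SMADs, extracellular antagonists, latent binding proteins and targets). It was chosen with earlier results of these data known, and its members were the probe sets whose platform gene symbol was on that list. It covered 99 probe sets of 45 genes, out of 18193 genes with a probe set of a single symbol. Bmp3 was not analysed here. The 6 lungs, 1 array each, came from mouse fetuses at E18.5, shortly before birth. The 3 lungs here called Cre-labelled carried floxed alleles of Nfib and the Dermo1-Cre transgene. The 3 control-labelled lungs carried the floxed Nfib alleles without Cre. Nfib encodes the transcription factor nuclear factor I B, and Dermo1-Cre drives Cre recombinase from the Dermo1 (Twist2) locus in mesenchyme, so cells outside mesenchyme are not its target. The labels call the 3 samples of a group biological replicates.

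Ligands of the TGF-beta family bind pairs of type I and type II receptor kinases, which phosphorylate SMAD proteins. TGF-beta and activin signal through Smad2 and Smad3, BMPs through Smad1, Smad5 and the related Smad9, and both branches share Smad4. Smad6 and Smad7 inhibit the pathway, secreted proteins such as noggin, chordin and gremlin hold BMPs away from their receptors, and latent binding proteins store TGF-beta in the matrix. In lung development BMPs act at the growing epithelial tips and in vessels, while TGF-beta acts on mesenchyme and matrix.

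Each gene was represented by its brightest probe set, and values are MAS5 log2 signals as the authors deposited them, in which 1 unit is a doubling. Each difference given is the Cre-labelled mean minus the control-labelled mean in log2 units, beside its standard error (SE) from a limma fit of 3 against 3 arrays. A call is a Benjamini-Hochberg adjusted p under 0.05 over all 27022 tested probe sets. A probe set was tested when its mean over the 6 arrays reached the 40th percentile. Every array had a 2% trimmed mean signal of about 150.04 or 150.05. Correlations across all probe sets ran from 0.940 to 0.950 within groups and from 0.931 to 0.949 between them. Tbx4, a marker of lung mesenchyme, read 10.18 to 10.36 over the 6 arrays. Other markers of mesenchyme moved in both directions, as given below. A list of 7 lung epithelium markers, all above the filter, averaged 9.60 ± 0.06 on Cre-labelled and 10.15 ± 0.21 on control-labelled arrays (SD, n = 3 each), with every Cre-labelled array below every control-labelled array. Of the 7, Sftpb and Aqp5 were called lower and none higher. The list was not uniform. Epcam was higher on every Cre-labelled array without a call (0.32 ± 0.12 SE, limma adjusted p = 0.18), and Sftpc differed by -0.07 ± 0.30 SE. The part of epithelial RNA in the pathway genes was not tested. The brightest Nfib probe set read 11.24, 11.16 and 11.49 in Cre-labelled lungs, against 10.24, 10.32 and 10.17 in control-labelled lungs, and 5 of 6 tested Nfib probe sets were called higher. No source used here says whether these probes lie in the deleted part of the gene, so they cannot check the labels, and every direction below rests on the labels as deposited.

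Of the 43 tested pathway genes, 2 rose in Cre-labelled lungs and none fell. The risers were Bmper, which encodes a secreted modulator of BMP signalling, and Bmp5, a BMP ligand. As shares of the genes tested these are 4.65% higher and none lower, against 1.92% and 3.04% of all 12826 tested genes. Because the list was chosen with earlier results known, its shares are a description and not independent evidence. At an unadjusted p under 0.05 in the same limma fit, 4 pathway genes (9.30%) were higher and 6 (14.0%) lower, against 10.7% and 12.8% of all tested genes. The median difference of the 43 was -0.06, against -0.01 over all tested genes, and 25 of them differed by less than 0.25 in either direction. Among the 43, 16 had a higher mean and 27 a lower mean in Cre-labelled lungs. In bulk tissue, fewer cells of a type and less RNA per cell cannot be told apart.

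**Figure D1:**
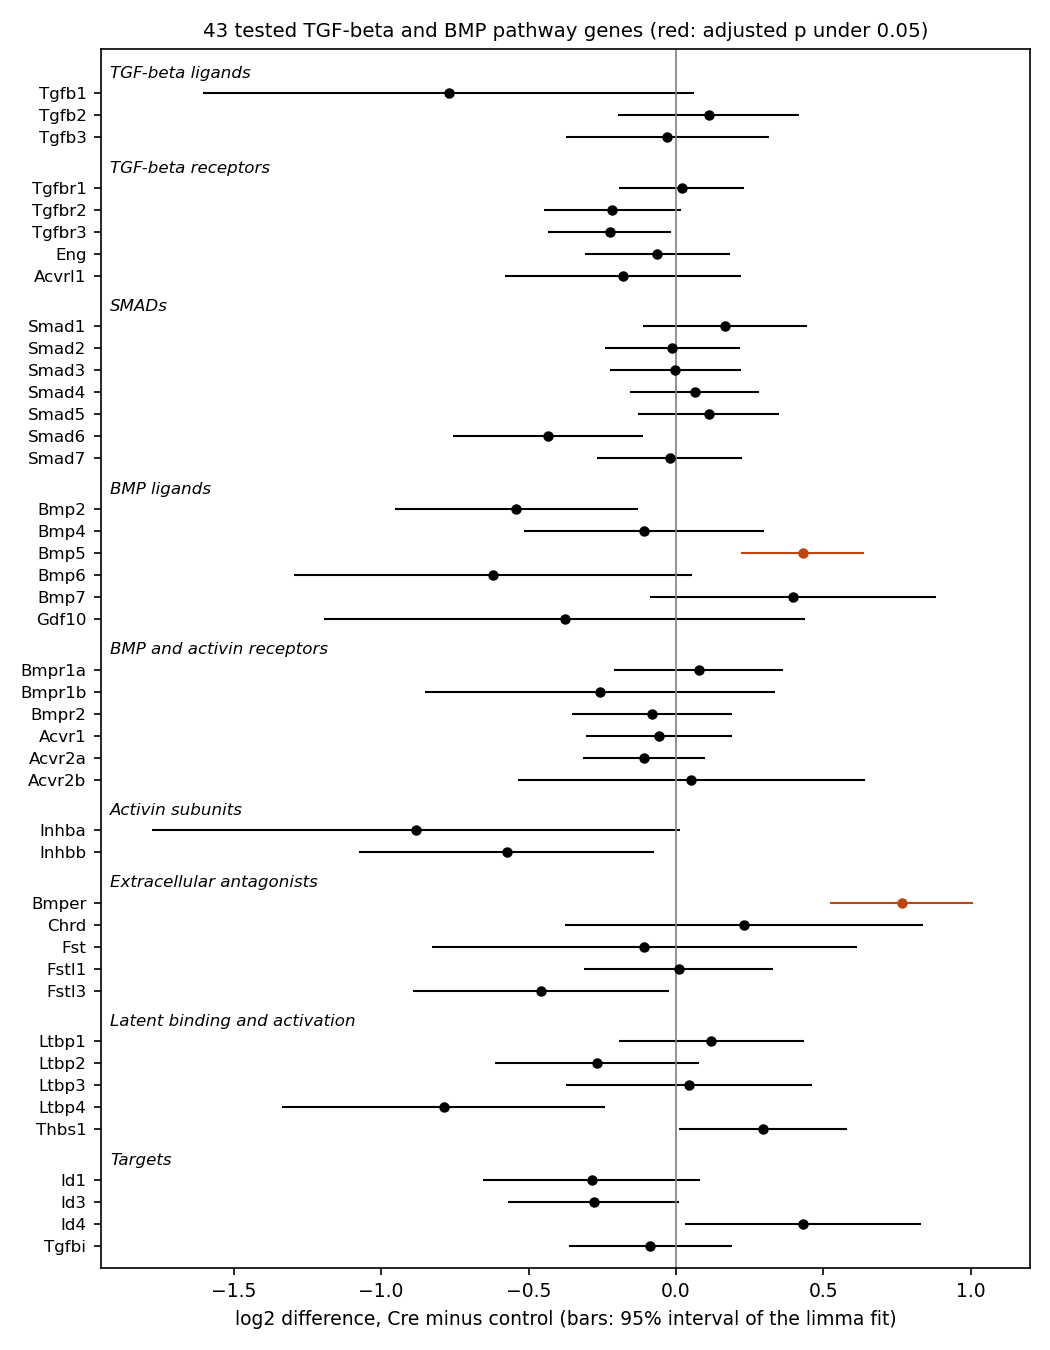
Log2 difference, Cre-labelled minus control-labelled, of the brightest probe set of each of the 43 tested pathway genes, grouped by role, with 95% intervals of the limma fit as bars. Bmper and Bmp5, in red, are the 2 genes past an adjusted p of 0.05, and most SMADs and receptors sit near 0.

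Bmper carried the largest rise of the set. Its single probe set read 9.81, 9.85 and 10.09 in Cre-labelled lungs, against 9.21, 9.19 and 9.04 in control-labelled lungs. The lowest Cre-labelled array lay above the highest control-labelled array by more than the replicate SD, which was 0.15 in Cre-labelled and 0.09 in control-labelled lungs (n = 3 each). The fold difference was 1.70, with a 95% interval from 1.44 to 2.01 (log2 difference 0.77 ± 0.11 SE, limma adjusted p = 0.0093). Bmper passed in all 6 fits without 1 array (adjusted p 0.025 to 0.038). It missed the threshold without an intensity trend in the variance (adjusted p = 0.060).

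Bmp5 is a ligand known from mesenchyme of the developing mouse. Its brightest probe set read 9.16, 9.09 and 9.17 in Cre-labelled lungs, against 8.67, 8.66 and 8.80 in control-labelled lungs, which is 1.35-fold (log2 difference 0.43 ± 0.09 SE; adjusted p = 0.039 in limma). The second probe set read 7.57, 7.32 and 7.40 in Cre-labelled lungs, against 6.80, 7.09 and 6.63 in control-labelled lungs. On the third the signals were 6.76, 6.67 and 6.47 in Cre-labelled lungs, against 5.96, 5.98 and 5.97 in control-labelled lungs. On all 3 probe sets every Cre-labelled array was above every control-labelled array, and the dimmer ones differed by 0.59 and 0.66 without passing (limma adjusted p 0.064 and 0.0503). The Bmp5 call was lost in each fit without 1 array (limma adjusted p 0.061 to 0.12). It was also lost with a common median, no filter or no intensity trend (adjusted p 0.0645 to 0.12). With fetal sex or the cardiac muscle mean as a covariate it was lost too (adjusted p 0.070 and 0.16). The labels give no fetal sex, which was read from Y-linked genes and Xist on the same arrays. Control-labelled replicate 1 and Cre-labelled replicate 2 read as female, the others as male.

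**Figure D2:**
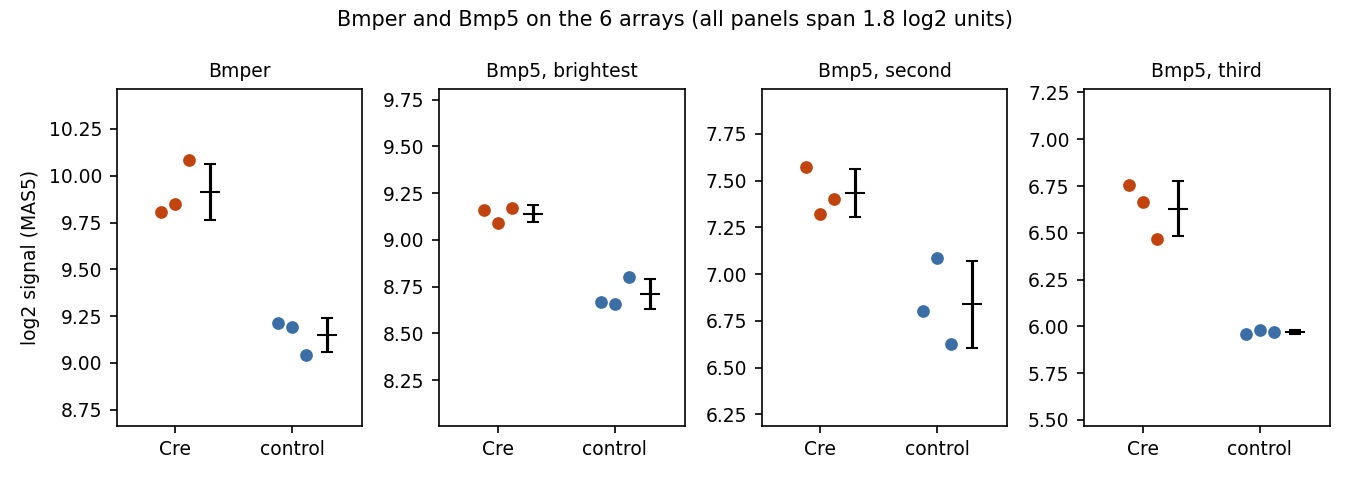
Log2 signal of the Bmper probe set and the 3 Bmp5 probe sets on each array (points, Cre-labelled left and control-labelled right), with the mean and SD of the 3 arrays as bars. In every panel the 3 Cre-labelled points lie above the 3 control-labelled points.

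A list of 8 lung mesenchyme genes had a mean signal of 10.22 to 10.29 on Cre-labelled arrays, against 10.14 to 10.19 on control-labelled arrays. Every Cre-labelled array thus lay above every control-labelled array. Of the 8, 1 was called, Wnt2 as higher (0.65 ± 0.09 SE). Uncalled genes of the list moved both ways, such as Tbx5 (0.44 ± 0.18 SE), Pdgfra (-0.33 ± 0.14 SE) and Tcf21 (-0.32 ± 0.14 SE). The cardiac muscle list had a mean of 6.70 to 8.15 on Cre-labelled and 7.66 to 9.59 on control-labelled arrays. With that mean as a covariate the Bmper difference was 0.93 ± 0.13 SE (limma adjusted p = 0.023).

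The DNA just before the RefSeq start sites of the genes that rose is shown because both lie on chromosome 9 and moved the same way. Each stretch is 250 bases on the plus strand of GRCm38.p6, at chr9:23222826-23223075 for Bmper and chr9:75775115-75775364 for Bmp5, written 5′ to 3′ and ending at the base before the start site. Capitals mark CG pairs.
Bmper: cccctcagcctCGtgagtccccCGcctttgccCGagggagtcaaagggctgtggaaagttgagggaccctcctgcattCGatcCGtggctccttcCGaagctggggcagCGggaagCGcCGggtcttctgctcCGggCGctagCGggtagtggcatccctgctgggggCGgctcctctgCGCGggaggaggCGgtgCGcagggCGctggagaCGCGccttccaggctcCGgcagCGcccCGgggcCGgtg
Bmp5: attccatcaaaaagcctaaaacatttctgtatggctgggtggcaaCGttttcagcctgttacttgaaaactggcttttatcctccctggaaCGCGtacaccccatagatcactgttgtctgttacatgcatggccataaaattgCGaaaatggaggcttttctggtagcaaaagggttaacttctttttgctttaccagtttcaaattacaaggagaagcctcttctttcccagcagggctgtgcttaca
The Bmper stretch is 71.6% G or C and holds 24 CG pairs. Its Bmp5 counterpart is 42.8% G or C and holds 4, while the medians over the 32851 such RefSeq stretches were 52.4% and 6 pairs. The nuclear factor I palindrome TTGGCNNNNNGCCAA, its arm TTGGC and the GC-rich BMP-responsive element GGCGCC, read on both strands, were found in neither stretch. RefSeq stretches were matched for 33 of the 46 genes. Of these, 18 (54.5%) held TTGGC, against 45.3% of all 27025 genes in the table. GGCGCC was in 9 (27.3%), against 10.8% of all genes. The palindrome, which contains that arm on each strand, was in none of the 33 and in 12 genes of the table. Such matches describe letters in this window only.

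None of the genes for TGF-beta ligands passed. Tgfb2 read 9.19 ± 0.22 in Cre-labelled and 9.08 ± 0.17 in control-labelled lungs (SD, n = 3 each), and its 4 probe sets all had small positive differences, from 0.11 to 0.20. Tgfb3 differed by -0.03 ± 0.15 SE. Tgfb1 read 5.96, 5.25 and 5.26 in Cre-labelled lungs, against 6.64, 6.78 and 5.36 in control-labelled lungs. The groups overlapped, because control-labelled replicate 3 was low, and the 95% interval of the difference ran from -1.60 to 0.06.

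TGF-beta receptor genes were measured more tightly. The type I receptor gene Tgfbr1 differed by 0.02 (95% interval -0.19 to 0.23). Tgfbr2, the type II receptor gene, read 10.71, 10.64 and 10.79 in Cre-labelled lungs, against 10.85, 10.91 and 11.03 in control-labelled lungs (log2 difference -0.22 ± 0.10 SE, limma adjusted p = 0.29). The co-receptor gene Tgfbr3, which encodes betaglycan, read 10.05, 10.17 and 10.14 in Cre-labelled lungs, against 10.33, 10.31 and 10.40 in control-labelled lungs (-0.23 ± 0.09 SE, adjusted p = 0.22). Both were lower on every Cre-labelled array by a margin that did not pass the test. Eng, the endothelial co-receptor endoglin, differed by -0.06 ± 0.11 SE, and Acvrl1, the endothelial type I receptor ALK1, by -0.18 ± 0.18 SE with its second probe set at 0.12.

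SMAD genes showed no call, and for 6 of the 7 the difference on the brightest probe set lay between -0.02 and 0.17. All 3 tested probe sets of Smad1 and all 3 of Smad5 were higher, up to 0.22 and 0.47, with none called. The 95% intervals were -0.24 to 0.22 for Smad2, -0.22 to 0.22 for Smad3 and -0.16 to 0.28 for the shared Smad4. For the BMP-branch Smad1 and Smad5 they were -0.11 to 0.44 and -0.13 to 0.35, and for the inhibitory Smad7 -0.27 to 0.22. Smad6, the inhibitor induced by BMP signals, stood apart by size. It read 6.91, 7.22 and 6.80 in Cre-labelled lungs, against 7.35, 7.37 and 7.52 in control-labelled lungs (log2 difference -0.44 ± 0.14 SE, limma adjusted p = 0.13). The groups did not overlap, and Cre-labelled replicate 2 was nearest the control-labelled range.

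Among the other BMP ligands the differences pointed both ways. Bmp2 read 5.99, 6.10 and 6.43 in Cre-labelled lungs, against 6.56, 6.97 and 6.60 in control-labelled lungs (log2 difference -0.54 ± 0.18 SE, limma adjusted p = 0.14). Bmp7 read 5.23, 5.22 and 5.22 in Cre-labelled lungs, against 5.04, 4.62 and 4.82 in control-labelled lungs (0.40 ± 0.22 SE, adjusted p = 0.35). Neither gene's groups overlapped, and neither difference passed. Bmp4, the ligand best known from the distal lung tips, averaged 7.39 ± 0.31 in Cre-labelled and 7.50 ± 0.23 in control-labelled lungs (SD, n = 3 each), with a 95% interval of the difference from -0.52 to 0.30. Bmp6 and the BMP-related Gdf10 differed by -0.62 ± 0.30 SE and -0.38 ± 0.36 SE, with overlapping arrays.

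Genes of BMP and activin receptors had no call. On the brightest probe sets the 6 differences lay between -0.26 for Bmpr1b and 0.08 for Bmpr1a, and the groups of every gene overlapped. Bmpr1a, the type I BMP receptor, was covered by 5 tested probe sets, all with positive differences and none called, from 0.08 to 0.53. On the dimmer probe sets at 0.22 and 0.53 every Cre-labelled array was above every control-labelled array. For the type II receptor genes Bmpr2 and Acvr2a the 95% intervals were -0.35 to 0.19 and -0.32 to 0.10. Acvr1, another type I receptor gene, differed by -0.06 ± 0.11 SE, and Acvr2b, with a dimmer probe set, by 0.05 ± 0.26 SE.

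The activin subunit genes gave unclear readings. Inhba averaged 3.82 ± 0.74 in Cre-labelled and 4.71 ± 0.39 in control-labelled lungs (SD, n = 3 each); its Cre-labelled mean lay below the level of the filter, so the gene entered through the control-labelled arrays. Inhbb read 5.02, 5.02 and 4.73 on its brighter probe set in Cre-labelled lungs, against 5.47, 5.26 and 5.76 in control-labelled lungs. Its other probe set, of nearly the same brightness, pointed the opposite way, at 5.57, 5.10 and 5.23 in Cre-labelled lungs, against 5.23, 4.58 and 4.86 in control-labelled lungs. Neither passed (limma adjusted p 0.19 and 0.41). Tested probe sets of 1 gene differed in sign in 8 of the 22 pathway genes that had more than 1, Inhbb included.

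Secreted antagonists other than Bmper were mostly dim. Nog, which encodes noggin, and Grem1, which encodes gremlin, lay below the filter. Nog averaged 1.44 ± 0.80 in Cre-labelled and -0.45 ± 0.56 in control-labelled lungs, and Grem1 averaged 3.16 ± 0.21 in Cre-labelled and 2.83 ± 0.15 in control-labelled lungs (SD, n = 3 each). Values this low carry much noise in MAS5 signals, and these genes were not tested. Chrd, which encodes chordin, and the activin antagonist gene Fst averaged between 4.02 and 4.81 in both groups, with 95% intervals of the difference from -0.38 to 0.84 and from -0.83 to 0.61. Fstl1, a follistatin-related secreted protein gene, was bright, at 12.14 ± 0.13 in Cre-labelled and 12.13 ± 0.20 in control-labelled lungs (SD, n = 3 each). Fstl3, another activin-binding protein gene, read 5.58, 5.75 and 5.69 in Cre-labelled lungs, against 6.37, 6.18 and 5.84 in control-labelled lungs. Its groups did not overlap, without passing (-0.46 ± 0.19 SE, limma adjusted p = 0.23).

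Of the genes that store and activate TGF-beta, Ltbp4 had the largest difference. Ltbp4, whose product also takes part in elastic fibre assembly, read 8.15, 7.83 and 7.16 in Cre-labelled lungs, against 8.65, 8.72 and 8.14 in control-labelled lungs. The highest Cre-labelled array just overlapped the lowest control-labelled array, and the 1.73-fold lower mean did not pass (log2 difference -0.79 ± 0.24 SE, limma adjusted p = 0.11). Ltbp3 differed little on its brightest probe set (0.04 ± 0.19 SE), while the next one read 8.83, 8.97 and 8.53 in Cre-labelled lungs, against 9.22, 9.14 and 9.19 in control-labelled lungs (-0.40 ± 0.12 SE, adjusted p = 0.10). Ltbp1 and Ltbp2 differed by 0.12 ± 0.14 SE and -0.27 ± 0.15 SE. Thbs1, which encodes thrombospondin 1, an activator of latent TGF-beta, read 9.03, 8.85 and 8.81 in Cre-labelled lungs, against 8.59, 8.39 and 8.82 in control-labelled lungs (0.30 ± 0.13 SE, adjusted p = 0.24). Control-labelled replicate 3 overlapped the Cre-labelled arrays.

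Target genes did not pass either. The BMP targets Id1 and Id3, which encode inhibitors of basic helix-loop-helix factors, were lowest on Cre-labelled replicate 3. Id1 read 10.13, 10.35 and 9.89 in Cre-labelled lungs, against 10.10, 10.47 and 10.66 in control-labelled lungs (log2 difference -0.29 ± 0.16 SE, limma adjusted p = 0.38). Id3 read 9.61, 9.57 and 9.18 in Cre-labelled lungs, against 9.65, 9.74 and 9.82 in control-labelled lungs (-0.28 ± 0.13 SE, adjusted p = 0.27). Id4 differed by 0.43 ± 0.18 SE on its brightest probe set and by -0.11 and 0.27 on the others. Tgfbi, a matrix protein gene induced by TGF-beta, differed by -0.09 ± 0.12 SE on its brightest probe set. Its other probe sets differed by -0.10, -0.25 and 0.21, none called. Every Cre-labelled array was below every control-labelled array on the probe set at -0.25, and above on that at 0.21.

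Cre-labelled replicate 3 also had the lowest mean of 10 endothelial marker genes. That mean was 9.76, 9.83 and 9.45 on Cre-labelled arrays, against 9.95, 10.05 and 10.07 on control-labelled arrays. None of the 10 was called, all 10 were above the filter, and their median difference was -0.38. The list was not uniform. Tek was higher on every Cre-labelled array (0.10 ± 0.09 SE), while the other members had lower means, Tie1 by only -0.10 ± 0.29 SE. Smad6, Id1, Id3, Eng and Acvrl1 are known from endothelium, among other cells. The part of endothelial RNA in their values was not tested.

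The arrays of the 2 groups were fully separated for 10 of the 43 tested genes, 3 with the Cre-labelled lungs above (Bmper, Bmp5 and Bmp7) and 7 with them below. These shares, 6.98% and 16.3%, compare with 15.3% and 16.5% of all tested genes, so separation as such did not single out the set.

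**Figure D3:**
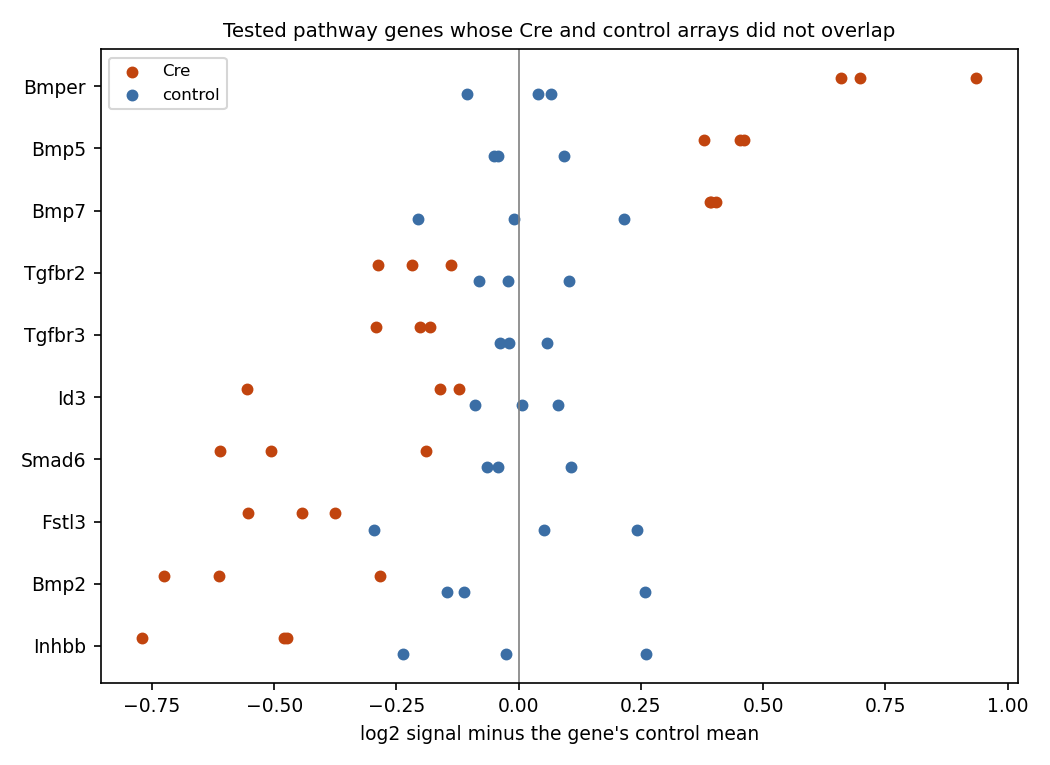
Log2 signal of each array minus the control-labelled mean of the gene (horizontal axis), for the 10 tested pathway genes whose groups did not overlap, with Cre-labelled arrays in red above control-labelled arrays in blue. Bmper and Bmp5 passed the adjusted test, and Tgfbr2, Tgfbr3, Id3, Smad6, Fstl3, Bmp2, Inhbb and Bmp7 did not.

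A wider list of 94 other TGF-beta family, regulator and target genes was counted in the same fit. It was made with some outcomes known: of its 11 called genes, Eln, Fbln5, Fbn2 and Ccn1 were already known to have moved, so its share of calls is a description and not independent evidence. Of its genes 85 had a probe set and 62 were tested. Of these 9 (14.5%) fell and 2 (3.23%) rose, with a median difference of -0.03, against 3.04% and 1.92% of all tested genes. None of 6 tested ligand genes and 1 of 13 tested SMAD partners and regulators passed, against 4 of 17 extracellular regulators and 4 of 15 targets. These differences in share between roles were not tested.

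Eln, Fbln5 and Fbn2 encode elastic fibre proteins, and were listed because fibrillins and their partners hold latent TGF-beta. The elastin gene Eln read 10.82, 10.85 and 10.64 in Cre-labelled lungs, against 11.80, 11.97 and 12.10 in control-labelled lungs (log2 difference -1.19 ± 0.12 SE, limma adjusted p = 0.0039). The fibulin gene Fbln5 read 9.19, 9.23 and 9.22 in Cre-labelled lungs, against 10.14, 9.97 and 10.17 in control-labelled lungs (-0.88 ± 0.10 SE, adjusted p = 0.0044). Fbn2, a fibrillin gene of the embryo, rose by 0.66 ± 0.11 SE (adjusted p = 0.017). Eln and Fbln5 passed in all 18 alternative fits and Fbn2 in 14, missing without Cre-labelled replicate 1 or 3 or control-labelled replicate 3 (adjusted p 0.050 to 0.051) and without the intensity trend.

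Of the 15 tested targets of the wider list, 7 had a higher mean and 8 a lower mean in Cre-labelled lungs, with a median difference of -0.02. Those named here are the called ones. Hey1, a transcriptional repressor gene induced by BMP and Notch signals, read 7.17, 6.83 and 7.29 in Cre-labelled lungs, against 8.34, 8.15 and 8.16 in control-labelled lungs. That is a 2.18-fold lower mean (log2 difference -1.12 ± 0.14 SE, limma adjusted p = 0.0068). Cdkn2b, a cyclin-dependent kinase inhibitor gene classically induced by TGF-beta, read 6.56, 6.85 and 7.06 in Cre-labelled lungs, against 7.92, 8.02 and 7.89 in control-labelled lungs (-1.12 ± 0.14 SE, adjusted p = 0.0076). In both genes every Cre-labelled array was below every control-labelled array, and both passed in all 6 fits without 1 array. Cdkn2b missed the threshold with the cardiac muscle mean as a covariate (limma adjusted p = 0.051). A list of 9 cell cycle genes had a mean of 9.84 to 9.91 on Cre-labelled arrays, against 9.14 to 9.37 on control-labelled arrays. All 9 were called higher. The link between these genes and the Cdkn2b values was not tested.

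Ccn2, the connective tissue growth factor gene, read 8.31, 8.58 and 9.07 in Cre-labelled lungs, against 9.63, 9.35 and 9.44 in control-labelled lungs (log2 difference -0.83 ± 0.18 SE, limma adjusted p = 0.039). Its call was lost without any single array other than Cre-labelled replicate 3 (adjusted p 0.081 to 0.12), and with the cardiac muscle mean as a covariate the difference was -0.50 ± 0.19 SE (adjusted p = 0.21). The ninth gene that fell was Ccn1, outside the rule for named genes (-0.58 ± 0.13 SE, adjusted p = 0.048), and it passed in no fit without 1 array (adjusted p 0.075 to 0.14). Immediate early genes, which respond to handling and with which Ccn1 is often grouped, were lower in the same lungs. The mean of 12 such genes was 6.57, 6.91 and 6.79 on Cre-labelled arrays, against 7.30, 7.30 and 7.48 on control-labelled arrays, and 6 of 11 tested fell. Their part in the Ccn1 and Ccn2 values was not tested.

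Of the regulators, Nbl1, which encodes the secreted BMP antagonist DAN, read 6.58, 6.48 and 6.36 in Cre-labelled lungs, against 7.49, 7.44 and 7.30 in control-labelled lungs (log2 difference -0.94 ± 0.13 SE, limma adjusted p = 0.0091). Its call was lost with the cardiac muscle mean as a covariate (-0.93 ± 0.19 SE, adjusted p = 0.053), and it passed in the other 17 alternative fits. Kcp, a chordin-like regulator gene, was not called and is named outside the rule as the uncalled gene of the wider list nearest the threshold (0.58 ± 0.14 SE, limma adjusted p = 0.051). Nedd4l, a ubiquitin ligase gene whose product acts on SMADs and on the epithelial sodium channel, fell by 0.63 (SE 0.12, adjusted p = 0.023), with 2 of its 4 tested probe sets called and all 4 lower. Nedd4l passed in 1 of the 6 fits without 1 array, that without control-labelled replicate 2 (adjusted p 0.056 to 0.073 in the other 5).

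Amhr2, the receptor gene for anti-Müllerian hormone, read 5.81, 5.52 and 5.39 in Cre-labelled lungs, against 6.80, 6.48 and 7.08 in control-labelled lungs (log2 difference -1.22 ± 0.20 SE, limma adjusted p = 0.017). Both of its tested probe sets fell. Amhr2 passed in 14 of the 18 alternative fits. The call was lost without Cre-labelled replicate 3 or control-labelled replicate 1 or 3 (limma adjusted p 0.051 to 0.059), and without the intensity trend. The difference was -0.65 after adding 64 to the linear signals. A list of 4 mesothelial markers, all above the filter, had a mean of 6.60, 6.74 and 7.49 on Cre-labelled arrays, against 7.39, 7.61 and 7.65 on control-labelled arrays. Of the 4, 1 was called, Msln as lower (-1.55 ± 0.17 SE). Upk3b (-0.59 ± 0.20 SE) and Lrrn4 (-0.77 ± 0.35 SE) had overlapping arrays, and Wt1 went the other way (0.47 ± 0.30 SE). The part of mesothelial RNA in the Amhr2 values was not tested. Itgb5, an integrin subunit gene that pairs with Itgav, rose by 0.46 ± 0.11 SE (adjusted p = 0.049). Its 4 tested probe sets were all higher with 1 called, and it passed in no fit without 1 array (adjusted p 0.084 to 0.14).

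**Figure D4:**
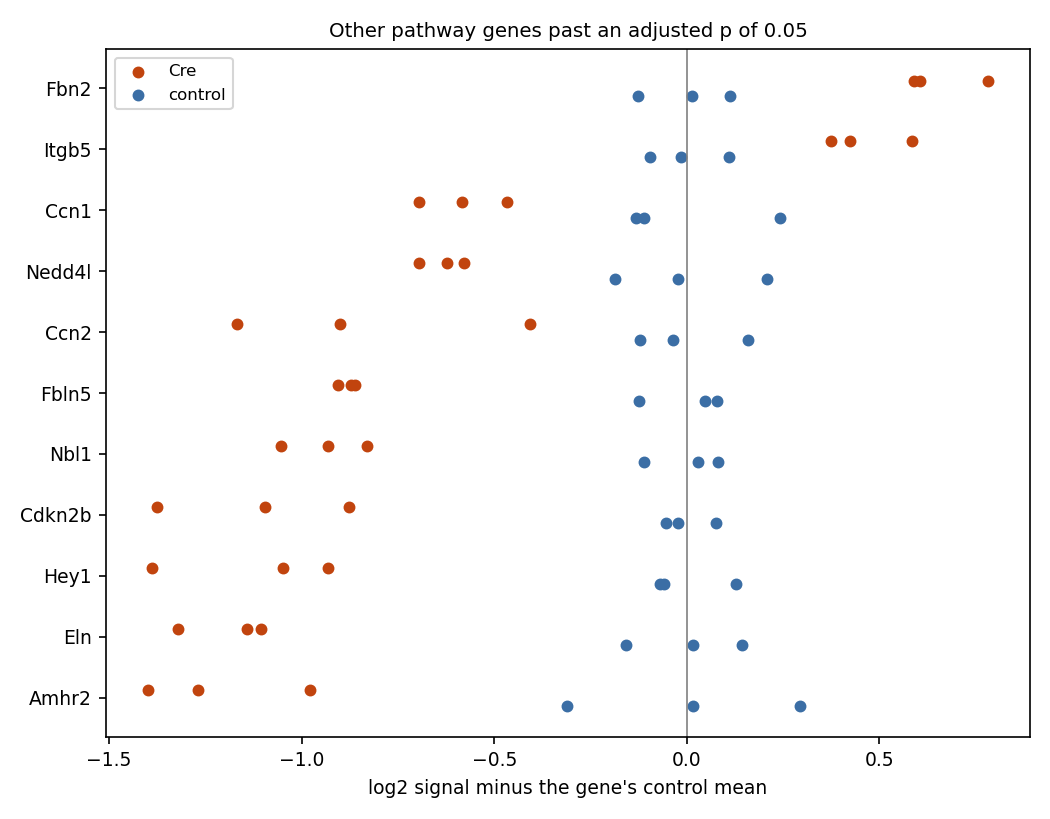
Log2 signal of each array minus the control-labelled mean of the gene (horizontal axis), for the 11 other pathway genes past an adjusted p of 0.05, with Cre-labelled arrays in red above control-labelled arrays in blue. Fbn2 and Itgb5 lie to the right, the other 9 to the left, and no gene's groups overlap.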

How the data were processed

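Total RNA of 6 fetal lungs was hybridised to Affymetrix arrays, 3 Cre-labelled and 3 control-labelled. The deposited values are log2 signals; MAS5 and affy appear in the submitters' processing notes with no version, and no source used here describes the scaling. They were used as deposited, without an offset.

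The table held 45101 probe sets, 64 of them controls. Of the rest 34945 had 1 gene symbol, 932 several and 9160 none. Probe sets at or above the 40th percentile of the mean over 6 arrays (27022) went into limma 3.58.1 under R 4.3.3 (lmFit and trended eBayes, two-sided, without covariates; 4 residual and 5.32 prior degrees of freedom). An exact permutation test of 3 against 3 arrays cannot go below p = 0.10. Same-numbered arrays of the 2 groups deviated together with correlations of -0.01, 0.20 and 0.14, against -0.27 to 0.14 for arrays of different number. These correlations cannot settle whether the arrays were paired. The labels name no pairs, so the numbers were not taken as pairs.

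The members and lists were chosen with earlier results of these data known; Eln, Fbln5, Fbn2 and Ccn1 of the wider list were known to have moved. Named genes were all members, and of the wider list up to 8 called genes in each direction by adjusted p. Ccn1 and Kcp were named outside this rule. Genes of a list without a probe set were not analysed here. The alternatives were quantile normalization, a common median, offsets of 16 and 64, no filter or the 60th percentile, no trend, array weights, the replicate block, 1 array left out, averaging the probe sets of a gene, fetal sex or the cardiac muscle mean as a covariate, and an adjusted p of 0.10. The fit was tested on simulated arrays with known changes. It recovered 9 of 49 changes of 1.5-fold, 18 of 47 of 2-fold, 38 of 45 of 3-fold and 39 of 42 of 4-fold. Of its calls, 7.14% fell on unchanged probe sets. Changes of 2-fold or less were thus mostly missed in the simulation. The number of arrays limits the precision. Promoter sequences are RefSeq's (GRCm38.p6). Plots used matplotlib 3.10.9 and Python 3.11.15.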

Additional observations from a re-analysis of the deposited data

How the results depend on the processing

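Over 18 alternative fits, 34 genes were followed singly: the 23 pathway genes whose difference was at least its SE and the 11 called genes of the wider list, Ccn1 included. Of their 608 refits, 540 kept direction and side of the threshold, 65 lost a call, 1 gained one and 2 turned sign. Those 2 were Gdf10 (0.0366) and Ltbp2 (0.0137) with the cardiac muscle mean as a covariate; neither was called, and the cause was not tested. Another 20 pathway genes, with differences under their SE, changed sign in 44 of 356 refits and were never called.

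Called pathway genes numbered 2 higher and 0 lower. The higher count was 1 with a common median, with no filter, with fetal sex or the cardiac mean as a covariate and in each fit without 1 array (1 to 1), and 0 without the intensity trend. In the wider list (2 higher, 9 lower), 1 was higher with a common median, no filter, sex or the cardiac mean, 0 without the trend and 4 at an adjusted p of 0.10. Lower there were 5 without the trend, 4 with the cardiac mean and 14 at 0.10. Without 1 array 0 to 2 were higher and 5 to 7 lower, with 5 without control-labelled replicate 1 or 3. Array-wide calls, 963, were 171 without the trend, 587 with sex, 439 with the cardiac mean, 2120 at 0.10 and 314 to 495 without 1 array, where fewer samples enter the fit. With the replicate block, 1 pathway gene was lower, Ltbp4 (limma adjusted p = 0.021), and array-wide calls were 1309. The labels do not say whether the replicate numbers pair the arrays. Other causes were not tested. No scaling moved the median of all tested probe sets by more than 0.04. Genes such as Inhba, Chrd and Fst, near the filter level, are limited by signal over background.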
